A study of Mus musculus with 10 samples.

Results

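The major urinary protein (Mup) genes described here are 10 symbols of a liver RNA-seq count table, Mup1, Mup2, Mup3, Mup7, Mup12, Mup14, Mup17, Mup18, Mup20 and Mup21, out of 24537 symbols in all. The 10 were picked on measured values, namely a lower level in old than in young livers, so their difference with age is given as a description and supports nothing beyond itself. The table holds 21 Mup symbols, and the other 11 are described beside the 10. RNA was sequenced from 10 whole livers of male mice that had received an adeno-associated virus of serotype 8, written in the labels as AAV8-TBG-saCas9-U6-sg, in which the hepatocyte promoter TBG drives the Cas9 of Staphylococcus aureus and a U6 promoter drives the guide RNA. The young Rosa26 group (3 livers) received the control guide to Rosa26 at 7 months and was sampled at 9 months of age. The old Rosa26 group (3 livers) received the same control guide at 23 months and was sampled at 25 months. The old Cd44KO group (4 livers) received a guide to Cd44 at 23 months and was sampled at 25 months, with guide g4 in knockouts 1 and 2 and guide g2 in knockouts 3 and 4. All 3 groups therefore carry the virus and Cas9, and a young knockout group is not among them. The mouse strain is not given in the sources used here.

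Major urinary proteins are small lipocalins, barrel-shaped carriers of hydrophobic ligands. Hepatocytes of adult male mice secrete them into the blood, the kidney filters them, and in urine they bind and slowly release volatile pheromones and also act as scent signals themselves. In liver their genes are among the most strongly transcribed, and the pulsatile growth hormone of males, acting through its receptor and the transcription factor STAT5B, is known to keep them at male levels. Mup20 encodes darcin, the male pheromone protein that attracts females. Mup3 and Mup21 are the members of the older, more diverged part of the cluster beside Mup20, and the other 7 listed genes belong to the recently duplicated central array.

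On the GRCm38 build (GENCODE M21), the Mup cluster spans 2.19 Mb at chr4:59956804-62150863 and holds 22 protein-coding Mup genes and 26 Mup pseudogenes. All 10 listed genes lie on the minus strand. Mup7 lies at chr4:60066469-60070475, Mup17 at chr4:61591929-61595871, Mup20 at chr4:62050234-62054158, Mup3 at chr4:62083476-62087342 and Mup21 at chr4:62147932-62150863. Coding sequences of Mup1, Mup2, Mup7, Mup12, Mup14, Mup17 and Mup18 were between 98.5% and 99.6% identical to each other over 21 pairs, with a median of 98.9%. These 7 are called the near-identical genes below. Against Mup3, Mup20 and Mup21 their identity was between 82.3% and 91.3%, and Mup3 and Mup21 were 94.7% identical to each other. The sequenced reads were 75 bases long, and 75 coding bases of each gene are printed because they show what separates the copies over the length of a read. They are the first of the coding windows with the most distinct sequences, 8 among the 10 genes. They start at coding base 25 in the genes with the shorter leader (base 28 in Mup18, Mup20 and Mup21, base 37 in Mup3), and capitals mark bases that differ from Mup2.
Mup2: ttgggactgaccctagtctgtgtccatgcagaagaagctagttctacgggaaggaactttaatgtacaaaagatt
Mup1: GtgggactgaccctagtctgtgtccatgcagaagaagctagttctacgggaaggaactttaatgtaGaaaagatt
Mup7: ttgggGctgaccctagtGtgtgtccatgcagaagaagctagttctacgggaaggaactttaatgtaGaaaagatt
Mup12: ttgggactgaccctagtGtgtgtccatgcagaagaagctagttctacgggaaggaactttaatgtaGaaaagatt
Mup14: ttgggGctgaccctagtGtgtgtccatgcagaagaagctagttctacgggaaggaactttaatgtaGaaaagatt
Mup17: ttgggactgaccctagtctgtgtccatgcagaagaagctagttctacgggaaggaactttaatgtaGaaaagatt
Mup18: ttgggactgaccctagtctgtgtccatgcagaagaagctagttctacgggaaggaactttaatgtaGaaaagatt
Mup20: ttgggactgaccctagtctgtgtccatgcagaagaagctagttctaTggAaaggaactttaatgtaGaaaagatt
Mup3: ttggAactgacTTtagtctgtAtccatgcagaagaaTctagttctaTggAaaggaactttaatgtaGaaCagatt
Mup21: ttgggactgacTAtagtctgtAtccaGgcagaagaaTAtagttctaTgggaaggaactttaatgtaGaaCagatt
Within this stretch Mup7 and Mup14 were the same, and so were Mup17 and Mup18. Mup20 differed from Mup2 at 3 bases, and Mup3 and Mup21 at 9 each. Over all 156 such coding windows, taken every 3 bases, the 7 near-identical genes had 1 common sequence in 25 windows (16%).

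The share of 75-base windows of each transcript that occurs in no other annotated transcript tells how far a single read can be assigned to 1 gene. Reads were sequenced in pairs, and a pair can be distinct where each read alone is not, so this share can understate what could be assigned. That share was 0% for Mup2, 5.4% for Mup14, 8.3% for Mup7, 9.5% for Mup1, 12.5% for Mup18, 19.7% for Mup12 and 31.3% for Mup17. It was 56.4% for Mup20, 89.7% for Mup21 and 93.2% for Mup3. For Mup20 the shared part is held in common with the pseudogene Mup-ps19, which shares 43.6% of its windows and has no symbol of its own in the table. How reads that fit several copies were handled is not given in the sources used here, so the division of counts among the 7 near-identical genes is uncertain. Values of Mup3 and Mup21 depend little on it, and the sum over all 21 Mup symbols avoids most of it. Sums over the 10 or the 7 listed genes still depend on it, since these share windows with unlisted copies. Mup2 shares 74.4% of its windows with Mup15, and Mup18 shares 70.1% with Mup11.

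Promoters are shown for members that lie in different parts of the cluster, all lower in old than in young Rosa26 livers, as they were picked to be. RefSeq start sites (GRCm38.p6) were matched by symbol for 7 of the 10 genes, with no entry for Mup1, Mup12 and Mup20. The 100 bases before the start are printed on the coding strand for Mup2 (chr4:60139857-60139956), Mup17 (chr4:61595833-61595932), Mup18 (chr4:61674095-61674194), Mup3 (chr4:62087318-62087417) and Mup21 (chr4:62150842-62150941), with the TATA-like word TATATAA in capitals.
Mup2: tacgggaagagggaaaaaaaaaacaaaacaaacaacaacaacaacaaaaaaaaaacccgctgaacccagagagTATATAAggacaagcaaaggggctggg
Mup17: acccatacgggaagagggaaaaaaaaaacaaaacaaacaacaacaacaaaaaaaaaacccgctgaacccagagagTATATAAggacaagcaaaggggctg
Mup18: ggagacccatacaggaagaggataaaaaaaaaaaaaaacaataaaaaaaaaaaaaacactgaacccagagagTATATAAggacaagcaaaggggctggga
Mup3: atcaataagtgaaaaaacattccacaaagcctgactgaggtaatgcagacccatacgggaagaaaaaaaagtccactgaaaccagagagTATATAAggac
Mup21: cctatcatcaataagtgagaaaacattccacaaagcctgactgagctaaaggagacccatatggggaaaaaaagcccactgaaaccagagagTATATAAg
Over 250 bases before the start, Mup2, Mup17 and Mup18 were between 92.4% and 98.0% identical in pairs and Mup3 and Mup21 were 92.3% identical, while pairs across the 2 sets were between 76.8% and 81.0% identical. The word TATATAA, searched on both strands, occurred in 5 of the 7 member promoters and in 3.04% of 32851 RefSeq promoters of that length. The 5 are those printed, and the promoters of Mup7 and Mup14, which are not printed, lacked it. The word TTCNNNGAA, the core that STAT proteins are known to bind, occurred in 0 of the 7 and in 7.02% of all promoters. The search covered only these 250 bases.

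Total counts ranged from 15821198 to 21710228 per liver, and 3 counts, taken as the smallest detectable amount, corresponded to between 0.131 and 0.198 CPM, that is read counts scaled to the size of the library. Such floors cover counting error only. Levels below are CPM on library sizes with trimmed mean of M values (TMM) factors, which ranged from 0.8237 to 0.8972 in young livers and from 0.9662 to 1.115 in old livers. A gene counts as called where edgeR's quasi-likelihood test, with Benjamini-Hochberg adjustment over 13909 genes, gave an adjusted p below 0.05, and SE is the standard error of a log2 difference. Nothing in the labels says that the livers of a group came from separate experiments, so p-values measure the spread between these livers. The library of old Rosa26 liver 3 has a number outside the run of the other 9, and nothing in the labels says why. In a whole liver, fewer hepatocytes and less RNA per hepatocyte cannot be told apart. The hepatocyte markers were present as the label says: all 12 had counts in every liver, and their summed level was between 108861 and 140032 CPM in young, 89671 and 119995 CPM in old Rosa26 and 97594 and 100483 CPM in old Cd44KO livers.

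In young livers the listed genes covered a wide range of levels. Levels per kilobase of transcript allow for length but not for how reads of like copies were divided. The places of the 7 near-identical genes in the order are therefore uncertain. Mup20 stood at 19089 ± 6409 CPM per kb (SD, n = 3) and Mup3 at 9555, with livers from 8075 to 12267. Mup7 followed at 4341 ± 1120, Mup2 at 2526 ± 480 and Mup1 at 1382 ± 291. No 2 neighbours in this order from Mup20 down to Mup14, at 828 ± 149, overlapped over the 3 livers. Mup14, Mup21 (541 ± 190) and Mup17 (513 ± 199) each overlapped with the next in order, and Mup12 (433 ± 123) did not overlap with Mup18, the lowest at 177 ± 44.8. In old Rosa26 livers Mup20 and Mup3 kept the top ranks, at 8851 ± 3209 and 4204 ± 1718 CPM per kb, without overlap. Mup7 stood there at 299 ± 241, behind Mup2 and Mup1, and Mup17 ranked last at 16.9 ± 12.1, and from Mup2 downwards each neighbour in the order overlapped with the next. The order of group means was the same in old Cd44KO livers as in old Rosa26 livers.

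The sum over the 10 genes was lower in every old liver than in every young liver. It was 32183, 47351 and 31277 CPM in young Rosa26 livers 1 to 3. In old Rosa26 livers it was 19949, 11249 and 9984 CPM. In old Cd44KO livers it was 14135 and 9860 CPM with g4 and 11129 and 18134 CPM with g2. The highest old value, in old Rosa26 liver 1, lay below the lowest young value, and the old Rosa26 and old Cd44KO livers overlapped throughout. Means were 36937 ± 9030 CPM (SD, n = 3) in young, 13727 ± 5425 CPM (n = 3) in old Rosa26 and 13315 ± 3679 CPM (n = 4) in old Cd44KO livers. The sum was thus 2.69 times lower in old than in young Rosa26 livers, a log2 difference of -1.43 (SE 0.32, 95% interval -2.12 to -0.73). As a share of all counts the 10 genes made up 3.16% ± 0.645 in young, 1.48% ± 0.652 in old Rosa26 and 1.43% ± 0.396 in old Cd44KO livers. With library totals in place of TMM factors the median log2 difference with age over all genes was 0.34, against 0.04 with TMM factors, and that of the sum was -1.10. Without old Rosa26 liver 3 the sum differed by -1.25, and without liver 1 by -1.80.

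**Figure D1:**
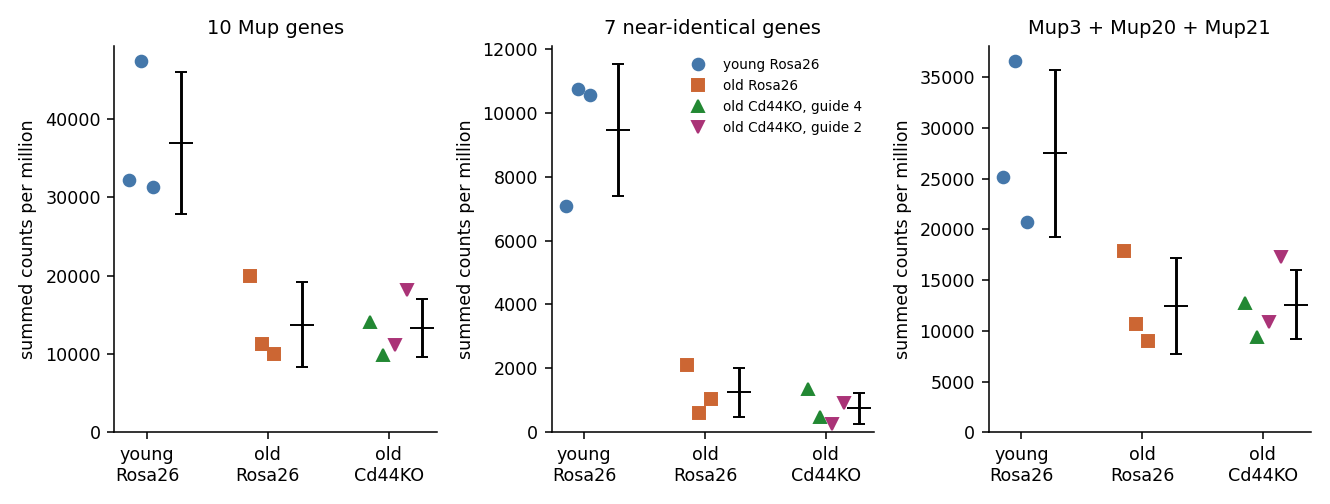
Summed level in CPM (vertical axes, each starting at 0) of the 10 Mup genes, of the 7 near-identical genes and of Mup3, Mup20 and Mup21 in each liver, with mean and SD beside the points of each group. All 7 old livers lie below the 3 young livers in each panel, and in the middle panel the old livers lie between 273 and 2109 against 7067 to 10735 in the young.

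Mup20, which encodes darcin, measured 16890, 24031 and 12223 CPM in young livers. It measured 11638, 6777 and 6226 CPM in old Rosa26 livers. With the Cd44 guides it measured 7473 and 5311 CPM (g4) and 8029 and 12319 CPM (g2). Young and old Rosa26 livers did not overlap, but by a narrow margin, and knockout 4 reached above the lowest young liver. The log2 difference between old and young Rosa26 livers was -1.11 (SE 0.35), or 2.16 times lower. Its share of the counts of the 10 genes was 47.4% ± 7.29 in young, 60.3% ± 2.01 in old Rosa26 and 61.7% ± 9.79 in old Cd44KO livers.

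Mup3, the second most abundant of the 10, measured 7946, 12071 and 8189 CPM in young livers and 5980, 3769 and 2659 CPM in old Rosa26 livers. In old Cd44KO livers it measured 5205 and 3985 CPM with g4 and 2743 and 4735 CPM with g2. No old liver reached the young range. The log2 difference with age was -1.18 (SE 0.32), or 2.27 times lower. Mup21, its closest relative by sequence, was a low member of the family with 280, 514 and 304 CPM in young livers. It had 223, 87.6 and 66.6 CPM in old Rosa26 livers and 91.9, 88.0, 82.7 and 168 CPM in old Cd44KO livers 1 to 4. Its log2 difference with age was -1.54 (SE 0.44), again with no overlap, and old Rosa26 liver 1 stood closest to the young livers.

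The near-identical genes stood further apart between the ages. Mup7, with the most assigned counts among them in young livers, measured 2857, 4371 and 4845 CPM there and 525, 91.7 and 216 CPM in old Rosa26 livers. It measured 200, 40.9, 46.3 and 319 CPM in old Cd44KO livers 1 to 4. Old Rosa26 liver 1 was again the highest of its group, yet at 13% of the young mean. The log2 difference with age was -3.86 (SE 0.85), or 14.5 times lower. Mup17 had the largest difference of the 10, with 277, 510 and 641 CPM in young livers against 28.5, 8.38 and 10.1 CPM in old Rosa26 livers. In old Cd44KO livers it measured 48.1, 6.32, 7.63 and 15.3 CPM. The log2 difference with age was -4.93 (SE 0.82), or 30.4 times lower, and no old liver exceeded 10.1% of the young mean.

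Mup2 measured 1938, 2818 and 2269 CPM in young livers and 559, 299 and 535 CPM in old Rosa26 livers. Its log2 difference was -2.33 (SE 0.46), or 5.04 times lower. Since Mup2 has no window of its own, this value is also one of the reads it shares with Mup14 and Mup15. Mup12 was 9.68 times lower with age (log2 -3.27, SE 0.77), Mup14 8.59 times lower (log2 -3.10, SE 0.65) and Mup18 5.52 times lower (log2 -2.46, SE 0.41). Their levels ranged from 270 to 475 CPM, 630 to 905 CPM and 125 to 208 CPM in young livers and from 18.3 to 77.8 CPM, 33.2 to 155 CPM and 19.5 to 35.3 CPM in old Rosa26 livers. The young and old ranges of these 3 genes did not overlap.

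Mup1 had 1 old control liver far above the other 2. It measured 970, 1448 and 1424 CPM in young livers and 728, 145 and 129 CPM in old Rosa26 livers. Old Rosa26 liver 1 kept 56.8% of the young mean, and livers 2 and 3 kept 11.3% and 10%. The log2 difference with age was -1.94 (SE 0.77), or 3.84 times lower, and Mup1 was the 1 gene of the 10 that was not called with age.

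**Figure D2:**
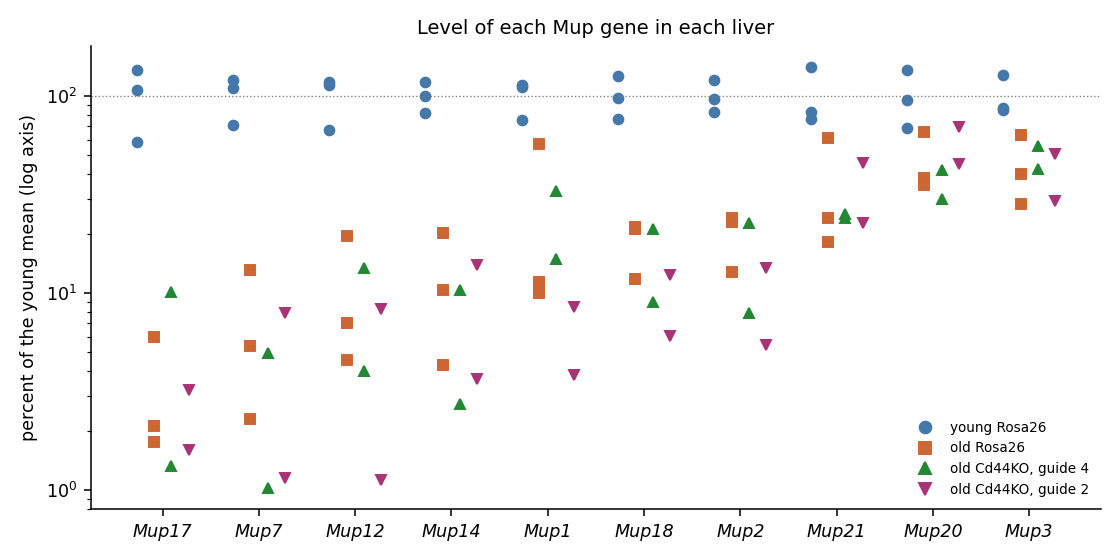
Level of each listed Mup gene in each liver as a percentage of that gene's mean in young livers (vertical log axis), with genes ordered by the median of the 7 old livers. Old Rosa26 liver 1 is the highest old control for each of the 10 genes, and the old livers lie between 1.02% and 13% for Mup7 but between 28.3% and 63.6% for Mup3.

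With age, 9 of the 10 genes were called lower, where 8.66% of all genes tested were called lower and 14.1% higher, and in all 10 every old Rosa26 liver lay below every young liver, as in 18% of all genes. Since the genes were picked for this, neither count is a result about them. Of all genes called with age 62% were higher on TMM factors, against 91.6% on library totals. The median log2 difference was -2.40 over the 10 genes and 0.04 over all 13909 genes. Without young liver 2 the number of the 10 called with age was 2, and without old Rosa26 liver 2 it was 5. Leaving out any other liver gave between 8 and 10. With all livers it was 6 on library totals, 6 when only the groups compared were fitted and 9 with DESeq2.

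Within this picked list, the 7 near-identical genes and the other 3 stood at different distances from the young livers. Unlisted copies of like sequence did not all follow this split. Mup13 and Mup10, with median identities of 98.5% and 98.9% to the other Mup symbols, differed with age by -1.36 and -1.70. Mup8, Mup9, Mup11, Mup15, Mup16 and Mup19 lay between -2.90 and -2.29. The sum of the 7 near-identical genes was 7067, 10735 and 10561 CPM in young livers and 2109, 615 and 1033 CPM in old Rosa26 livers, a ratio of means of 7.55. The sum of Mup3, Mup20 and Mup21 was 25116, 36616 and 20716 CPM in young livers and 17841, 10633 and 8952 CPM in old Rosa26 livers. Old Rosa26 liver 1 thus kept 22.3% of the young mean of the near-identical genes and 64.9% of that of the other 3. The median log2 difference with age was -3.10 over the 7 and -1.18 over the 3. Counts of the 7 divided by counts of the 3, a ratio that does not depend on the scaling of the libraries, were 0.281, 0.293 and 0.510 in young livers and 0.118, 0.058 and 0.115 in old Rosa26 livers. In old Cd44KO livers the ratio was 0.107, 0.051, 0.025 and 0.053. All 7 old livers lay below the 3 young livers in this ratio. It still depends on how reads were divided between the 7 and unlisted copies.

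**Figure D3:**
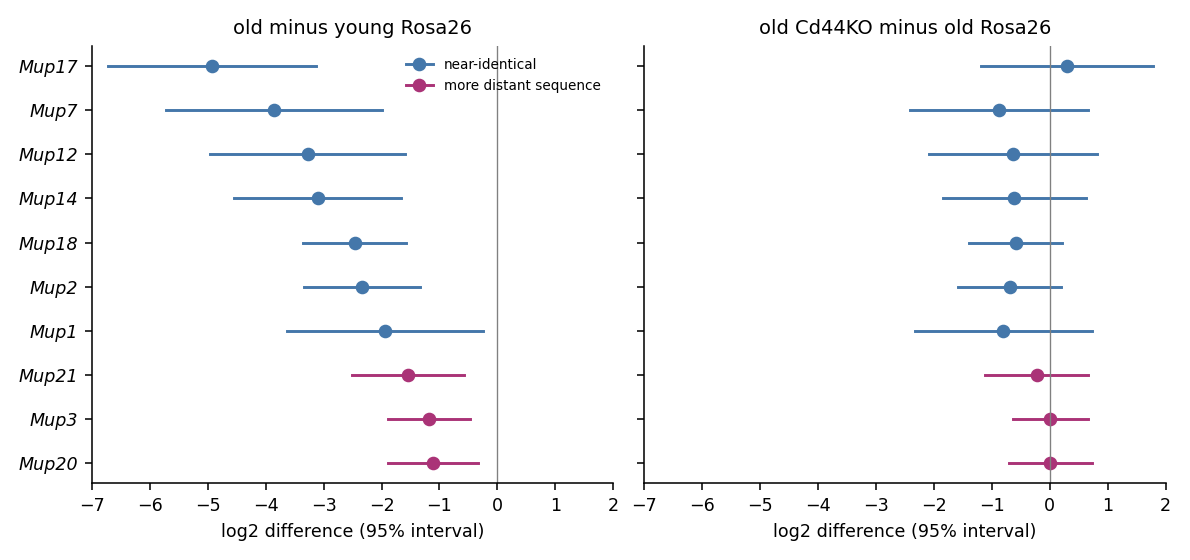
Log2 difference of each listed Mup gene between old and young Rosa26 livers (left) and between old Cd44KO and old Rosa26 livers (right), with points for the fitted value and bars for the 95% interval. On the left the 7 near-identical genes lie between -4.93 and -1.94 and the 3 others between -1.54 and -1.11, and on the right every interval includes 0.

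Across the 10 livers the members varied together. Pearson's r of log2 CPM was between 0.86 and 1 over the 21 pairs of near-identical genes, with a median of 0.96, and between 0.68 and 0.92 over the 21 pairs of a near-identical gene with Mup3, Mup20 or Mup21. These values hold the difference between ages and, for near-identical copies, shared reads. Within the 7 old livers the medians were 0.79 and 0.52. Mup18 and Mup20 had the lowest value there, at 0.19, and Mup20 and Mup21 stood at 0.87. Both g2 livers lay above both g4 livers for Mup20, while for the sum of the near-identical genes, at 1365 and 476 CPM with g4 and 273 and 913 CPM with g2, they overlapped.

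The comparison of old Cd44KO with old Rosa26 livers asks what a guide to Cd44 in hepatocytes does to the family at the same age. The genes were picked for a lower level in old than in young livers, with earlier results of these data known. Their choice may therefore not be independent of the old Cd44KO livers, and a low level in both old groups favours overlap between them. None of the 10 was called, with edgeR's quasi-likelihood test or with DESeq2, and 0 of the 10 had an unadjusted p under 0.05. Over all genes edgeR called 0% and DESeq2 called 8 genes, while 916 had an unadjusted p under 0.05 in edgeR. The summed level differed by -0.04 on the log2 scale (SE 0.29, 95% interval -0.68 to 0.59). Mup3 differed by 0.01 (SE 0.30, 95% interval -0.64 to 0.66) and Mup20 by 0.01 (SE 0.33, 95% interval -0.70 to 0.73), and Mup21 by -0.22 (SE 0.40, 95% interval -1.11 to 0.66). Groups overlapped for all 10, as for most genes. Of all 13909 genes tested, only 453 had every knockout liver below every old Rosa26 liver, and 395 had every one above. The intervals of Mup3, Mup20 and Mup21 leave room for differences in either direction of the size given, so a similar level is not shown.

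Among the near-identical genes the fitted knockout differences were less precise. Mup7 differed by -0.87 (SE 0.70, 95% interval -2.42 to 0.67), Mup2 by -0.69 (SE 0.41, 95% interval -1.58 to 0.20) and Mup17 by 0.30 (SE 0.67, 95% interval -1.18 to 1.78). The adjusted p over the 10 genes was between 0.794 and 0.996 in edgeR's quasi-likelihood test. In 7 of the 10 the fitted value was negative, as in 7572 of all 13909 genes tested. The median was -0.60 over the 10 against -0.02 over all genes. Old Rosa26 liver 1 weighed on this sign: without it the summed level was 0.33 higher in knockout livers on the log2 scale, and Mup1 turned from -0.80 to 0.49. Without it edgeR called 3 genes over the whole table, none of them a listed Mup gene. Cd44 itself measured 14.2, 30.0 and 25.9 CPM in old Rosa26 livers and 18.9, 29.0, 17.6 and 13.1 CPM in old Cd44KO livers. Its log2 difference was -0.25 (SE 0.30, adjusted p = 0.896 in edgeR). A whole-liver level does not check an edit made in hepatocytes, since the other cells of the liver keep their Cd44.

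Against young Rosa26 livers, which the age comparison shares as its controls, old Cd44KO livers had a sum 2.77 times lower (log2 -1.47, SE 0.29). Here 9 of the 10 were called lower, where 4.97% of all genes were, and in 9 every knockout liver lay below every young liver, as in 18.8% of all genes. Mup20 was the exception on both counts, with a log2 difference of -1.10 (SE 0.32). Mup7 stood at -4.73 (SE 0.78), Mup17 at -4.63 (SE 0.72), Mup12 at -3.91 (SE 0.70) and Mup1 at -2.74 (SE 0.72). Without young liver 2 the number called was 3. Of all genes called here 57.2% were higher on TMM factors and 92.9% on library totals.

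Between the Cd44 guides, with 2 livers each, none of the 10 was called by edgeR's quasi-likelihood test or by DESeq2, where edgeR called 0.0216% of all genes. The sum differed by -0.29 on the log2 scale, g4 minus g2 (SE 0.39, 95% interval -1.15 to 0.58). Mup1 alone of the 10 had an unadjusted p under 0.05. It measured 420 and 191 CPM with g4 and 49.4 and 109 CPM with g2, without overlap, a log2 difference of 1.95 (SE 0.79, 95% interval 0.20 to 3.70, adjusted p = 1 in edgeR). Of the 9 other Mup symbols tested, Mup9, Mup10, Mup11, Mup16 and Mup19 also had an unadjusted p under 0.05, all higher with g4, and Mup9, Mup16 and Mup19 did so without overlap, but none was called (adjusted p from 0.621 to 1 in edgeR). Mup20 lay in the other direction without overlap, at -0.67 (SE 0.40, 95% interval -1.55 to 0.21). Of all 13909 genes tested, 603 had an unadjusted p under 0.05 in edgeR. With 2 livers each, the guides did not overlap in 2519 genes higher and 2843 genes lower with g4. A lack of overlap is thus common in this comparison. Knockout 1 was the highest knockout liver for Mup1, Mup2, Mup3, Mup12, Mup17 and Mup18, and knockout 4 for Mup7, Mup14, Mup20 and Mup21.

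The other 11 Mup symbols of the table were not chosen but lie in the same cluster. Mup15, which has no 75-base window of its own, measured 2224, 3690 and 3762 CPM in young livers and 1070, 202 and 335 CPM in old Rosa26 livers. Mup13 measured 1853, 2662 and 2255 CPM in young livers and 1678, 409 and 551 CPM in old Rosa26 livers, so that old Rosa26 liver 1 stood at 74.4% of the young mean. Mup4, Mup5 and Mup6 were near the floor, with at most 1.58 CPM in any liver, and Mup4 and Mup6 did not pass the count filter. Of the 9 symbols tested, 7 were called lower with age, where 8.66% of all genes tested were. They were Mup8, Mup9, Mup10, Mup11, Mup15, Mup16 and Mup19, with log2 differences between -2.90 for Mup8 and -1.70 for Mup10. Mup13 (log2 -1.36, SE 0.49) and Mup5 (log2 -0.88, SE 0.53) were not called. Apart from Mup4, Mup5 and Mup6, these symbols have at most 15.5% of 75-base windows of their own, so their values are not independent of those of the 10. Summed over all 21 symbols, the level was 46472 ± 10317 CPM (SD, n = 3) in young, 15996 ± 6849 CPM (n = 3) in old Rosa26 and 14880 ± 4239 CPM (n = 4) in old Cd44KO livers.

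Genes that flank the cluster lay on both sides of 0. Among the 5 nearest tested protein-coding genes on each side, 1 was called lower and 1 higher with age. Over all genes tested the shares were 8.66% and 14.1%, so these counts do not set the neighbours apart. Log2 differences of the neighbours ranged from -0.88 to 1.07 with a median of 0.07. Hsdl2, a peroxisomal dehydrogenase-like gene, measured 99.7, 109 and 103 CPM in young livers and 43.9, 51.1 and 74.3 CPM in old Rosa26 livers and fell by 0.88 on the log2 scale (SE 0.20, adjusted p = 0.0151 in edgeR). Snx30, a sorting nexin at the edge of the cluster, rose by 0.89 (SE 0.19, adjusted p = 0.0123), from 3.96 to 5.70 CPM in young to 7.96 to 9.83 CPM in old Rosa26 livers. Ptbp3, E130308A19Rik, Inip, Zfp37, Slc31a2, Fkbp15, Slc31a1 and Cdc26 were not called. Without young liver 2 neither Hsdl2 nor Snx30 was called, and without old Rosa26 liver 2 Hsdl2 was not.

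**Figure D4:**
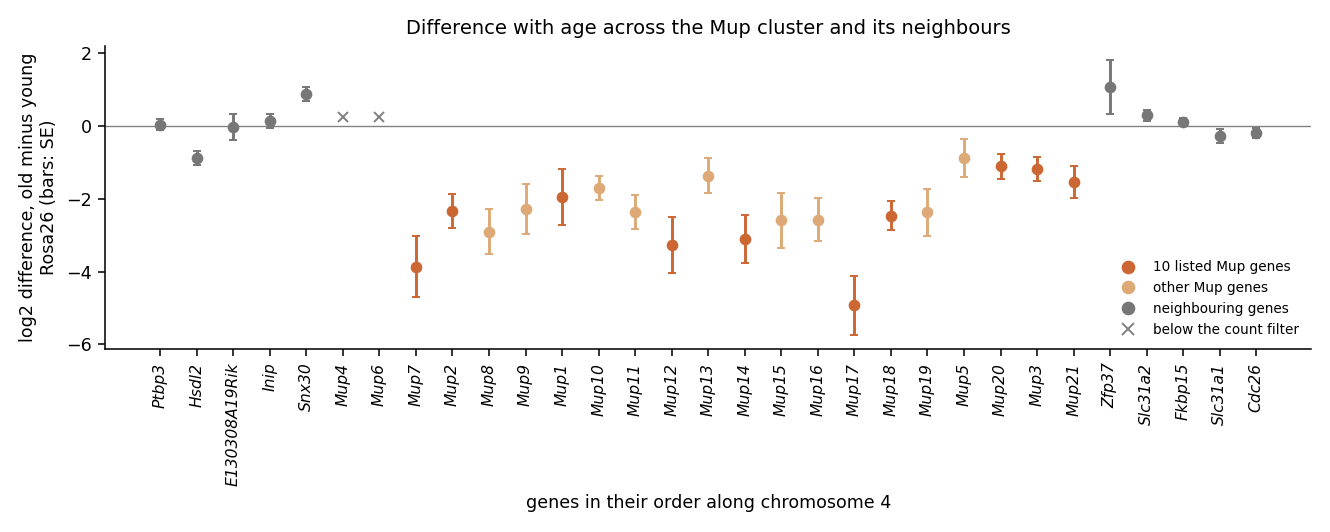
Log2 difference between old and young Rosa26 livers (vertical axis, bars are the SE) of the listed Mup genes, the other Mup genes and the 5 neighbouring genes on each side, in their order along the chromosome. Every Mup gene tested lies below 0, and the crosses mark Mup4 and Mup6, which were below the count filter and have no value.

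The growth hormone pathway is known to maintain male Mup levels. Among its 12 listed genes edgeR called none with age, 2 had an unadjusted p under 0.05 in edgeR and DESeq2 called 1. Of all genes tested 8.66% were called lower and 14.1% higher, and 12 genes are few to set against these shares. Ghr, the receptor, measured between 386 and 396 CPM in young and between 283 and 364 CPM in old Rosa26 livers, without overlap, a log2 difference of -0.31 that was not called (adjusted p = 0.127 in edgeR). Stat5b, its main transcription factor in liver, differed by 0.27, and Socs2, a feedback inhibitor that growth hormone induces, by -0.88 (adjusted p = 0.234 in edgeR). Igf1, the main hormone made under growth hormone, lay between 592 and 649 CPM in young and between 561 and 604 CPM in old Rosa26 livers, with a log2 difference of -0.09 on TMM factors and of 0.22 on library totals. Without old Rosa26 liver 3, 3 of the 12 were called lower and 1 higher, and on library totals 4 were called higher and 0 lower.

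Among 20 tested transcription factors known in Mup or liver gene control, 4 were called lower and 1 higher with age. Over all genes tested 8.66% were called lower and 14.1% higher. Hnf4a, the central hepatocyte factor, measured 1166, 1187 and 1068 CPM in young and 437, 475 and 842 CPM in old Rosa26 livers and fell by 0.96 on the log2 scale (SE 0.22, adjusted p = 0.0147 in edgeR). Foxa3 fell by 1.11 (SE 0.21) and Cebpb by 0.77 (SE 0.20), and the clock output factor Dbp rose by 2.18 (SE 0.59). Zhx2, a factor known to act on Mup genes in mouse strains, measured 24.4, 19.9 and 18.8 CPM in young and 12.8, 16 and 21.2 CPM in old Rosa26 livers, and its difference of -0.34 was not called (adjusted p = 0.234 in edgeR). Bcl6, a repressor tied to sex-biased liver genes, differed by -0.73 (SE 0.67) and overlapped widely. The number called lower was 2 of 20 without old Rosa26 liver 2 or without young liver 2, and Hnf4a, Cebpb and Dbp were then not called. Cebpb and Dbp were also not called without old Rosa26 liver 1 or without young liver 1. The number called higher was 3 without old Rosa26 liver 3 or without young liver 3.

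Of 18 tested genes known to be higher in male than in female mouse liver, 10 were called lower with age and none higher. Over all genes tested 8.66% were called lower. The median log2 difference of the 18 was -1.10. This list was chosen with earlier results of these data known, so its count and median are not independent of them. Cyp4a12a, a male-specific fatty acid hydroxylase, measured 478, 714 and 594 CPM in young livers and 192, 61.3 and 98.1 CPM in old Rosa26 livers and fell by 2.34 on the log2 scale (SE 0.38, adjusted p = 0.00772 in edgeR). Its close copy Cyp4a12b fell by 2.51 (SE 0.36), Selenbp2 by 2.58 (SE 0.66), the fatty acid elongase Elovl3 by 1.35 (SE 0.25), the oxysterol hydroxylase Cyp7b1 by 1.34 (SE 0.35), Ugt2b1 by 1.17 (SE 0.20), Cyp2d9 by 0.96 (SE 0.24) and complement C6 by 0.80 (SE 0.18). In old Cd44KO against old Rosa26 livers edgeR called none of the 18, 4 had an unadjusted p under 0.05 and DESeq2 called 1. The number called lower with age was 4 of 18 without old Rosa26 liver 2 or without young liver 2, and Cyp7b1, Selenbp2, Cyp2d9 and C6 were then not called. Selenbp2 and Cyp7b1 were also not called without old Rosa26 liver 1, nor Selenbp2 without young liver 3.

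Of 16 tested genes that are higher in female liver, 3 were called higher with age and none lower, where 14.1% of all genes were called higher. Cyp2b9, a female-biased cytochrome P450, was near the floor at 0.306, 0 and 0.127 CPM in young livers and measured 0.688, 11.4 and 23.7 CPM in old Rosa26 livers (adjusted p = 0.0164 in edgeR). Abcd2, a peroxisomal fatty acid transporter, measured 9.91, 3.43 and 4.43 CPM in young and 31.7, 27.5 and 17.1 CPM in old Rosa26 livers and rose by 2.10 on the log2 scale (SE 0.36). Hao2 rose by 1.61 (SE 0.40) at levels of at most 1.5 CPM in these groups. The median over the 16 was -0.02. Without young liver 2 the number called higher was 1 of 16. Cyp2b9 was not called without young liver 2 or 3, and Hao2 not without old Rosa26 liver 2 or without any 1 of the young livers. Cyp2a4 of the same list was called between the guides, with 19.3 and 32.3 CPM with g4 and 293 and 199 CPM with g2, but not once any 1 of the 4 knockout livers was left out.

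Other secreted products of hepatocytes are set beside all genes tested, of which 8.66% were called lower with age. Albumin (Alb) measured 95018, 76968 and 69705 CPM in young and 52993, 67928 and 83832 CPM in old Rosa26 livers, a log2 difference of -0.24 (SE 0.21) that was not called. Of 20 listed secreted proteins edgeR called 2 lower, the protease inhibitors Serpina1a (-0.67, SE 0.18) and Serpina1b (-0.60, SE 0.15). That is near the share over all genes. The median was -0.31, 17 of the 20 had a negative value and DESeq2 called 5 lower. The number called lower by edgeR was 0 without old Rosa26 liver 2 or without any 1 of the young livers. It was 4 without old Rosa26 liver 1, 8 without old Rosa26 liver 3 and 0 on library totals. Of 10 tested liver lipocalins outside the family, edgeR called none with age, 0 had an unadjusted p under 0.05 and DESeq2 called 0, with a median of -0.28. Without old Rosa26 liver 1 or 3 edgeR called 2 of them lower. Among the 12 hepatocyte markers Hnf4a, Tat and Cyp2f2 were called lower, and the number was 0 without old Rosa26 liver 2 or young liver 2, 1 without young liver 1 or on library totals and 7 without old Rosa26 liver 3.

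**Figure D5:**
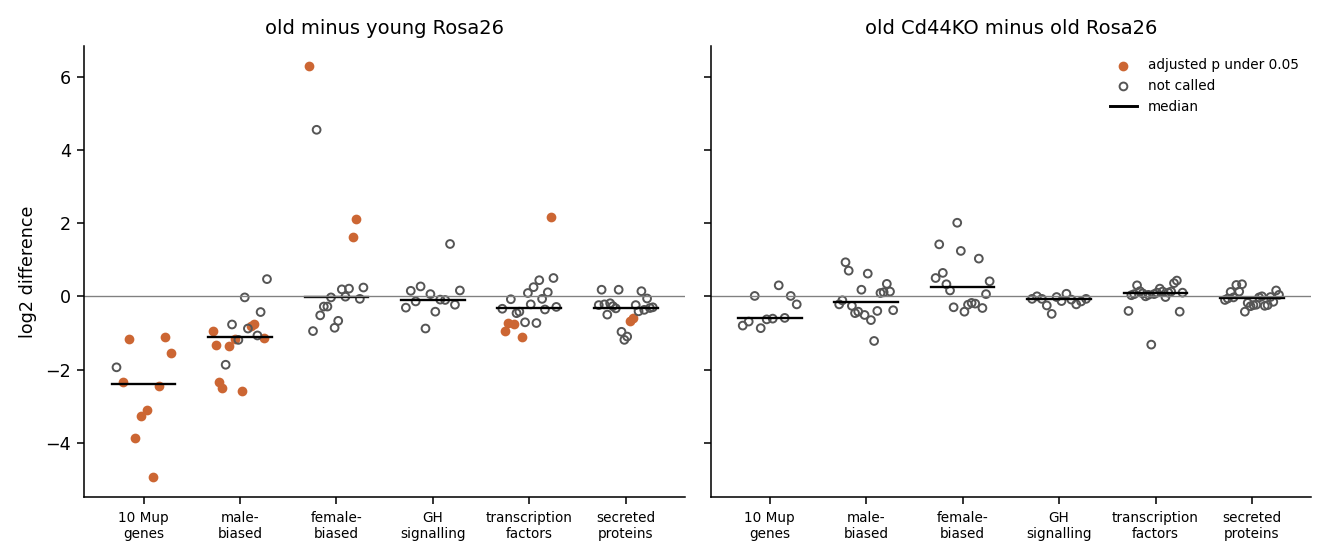
Log2 difference of each tested gene of 6 sets (horizontal axis) between old and young Rosa26 livers (left) and between old Cd44KO and old Rosa26 livers (right), with filled points for genes called at an adjusted p under 0.05, open points for the others and a line at the median of the set. The medians with age are -2.40 for the 10 Mup genes, -1.10 for male-biased and -0.02 for female-biased genes, no point is filled on the right, and the highest filled point is Cyp2b9, whose fitted value rests on young levels at the floor.

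Markers of other liver cells moved with age beside the family. Called higher in old Rosa26 livers were 6 of 8 endothelial, 5 of 7 Kupffer cell and macrophage, 5 of 8 T and B cell, 4 of 5 tested neutrophil and 5 of 7 stellate cell and fibroblast markers, and 0 of 6 cholangiocyte markers by edgeR, by DESeq2 or at an unadjusted p under 0.05. Over all genes tested 14.1% were called higher, and the marker lists were chosen with earlier results of these data known. No listed marker was at 0 in every liver. Summed levels ranged from 181 to 253 CPM in young, 353 to 428 CPM in old Rosa26 and 249 to 303 CPM in old Cd44KO livers for endothelium, and from 177 to 258, 327 to 1111 and 265 to 530 CPM for macrophages. For T and B cells they ranged from 5 to 9.30, 9.01 to 66.8 and 22.6 to 35.0 CPM, and for neutrophils from 3.74 to 9.97, 14.6 to 298 and 7.96 to 23.4 CPM. For stellate cells they ranged from 146 to 241, 297 to 458 and 251 to 297 CPM. The highest macrophage, T and B cell, neutrophil and stellate cell sums were those of old Rosa26 liver 2, whose Mup sum was 11249 CPM. Without young liver 2 the counts called were 1 for endothelium, 0 for macrophages, 0 for T and B cells, 0 for neutrophils and 1 for stellate cells. Without old Rosa26 liver 2 they were 0 for T and B cells, 0 for neutrophils and 2 for stellate cells. Without young liver 1 they were 3 for endothelium, 2 for T and B cells, 1 for neutrophils and 2 for stellate cells, and without young liver 3 they were 0 for T and B cells and neutrophils. Without old Rosa26 liver 3 they were 8 for T and B cells and 8 for neutrophils, and without liver 1 they were 8 for neutrophils. DESeq2 called 0 neutrophil markers, and on library totals 1 cholangiocyte marker was called higher. The part of these cells in the lower Mup levels was not tested.

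The genes most like the family were ranked by Pearson's r of log2 CPM with the log2 CPM of the sum, over 10 livers and 12677 genes outside the family with a mean of at least 1 CPM. Serpina1c, another copy of the alpha-1-antitrypsin genes, was nearest at 0.960, followed by BC021767 (0.946), the bile acid conjugating enzyme Baat (0.943), the methionyl-tRNA synthetase gene Mars (0.937), Akirin2 (0.936), Cyp2d10 (0.935), 1600012H06Rik (0.932) and Slc22a30 (0.929). Serpina1c measured 6182, 8461 and 7088 CPM in young, 4735, 3902 and 4081 CPM in old Rosa26 and 4738, 4292, 4088 and 4899 CPM in old Cd44KO livers. The most opposite genes were Cyp2b9 (-0.980), Ssh2 (-0.965), Fam65b (-0.955), Hgf (-0.953) and Slc22a27 (-0.951). Since the livers fall into 2 ages, these values largely describe the difference between ages. Within the 7 old livers Serpina1c stood at 0.84, BC021767 at 0.92, Cyp2d10 at 0.86 and Cyp2b9 at -0.95, and Baat at 0.63. Across those 7 livers Cyp2b9 was lowest in old Rosa26 liver 1 and in knockout 4, at 0.688 and 2.97 CPM, and these were the livers with the highest Mup sums.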

How the data were processed

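Whole-liver RNA was extracted with Direct-zol, made into polyA-selected libraries with a Watchmaker mRNA kit and sequenced as paired 75-base reads on an AVITI instrument, per the labels' protocols. The authors deposited 1 table of raw read counts per gene symbol for 10 livers. The submitters' processing notes name FastQC 0.11.8, Trim Galore 0.4.4, STAR 2.5.3a, HOMER and the mm10 build, without their roles. The handling of reads that fit several genes is not given in the sources used here.

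Genes were kept with edgeR's filterByExpr (minimum count 10, minimum total 15), which left 13909 of 24537. A quasi-likelihood fit over the 3 groups, with the 2 guides as separate groups for their contrast, used TMM factors (edgeR 4.0.16, limma 3.58.1, R 4.3.3), with Benjamini-Hochberg adjustment over all genes tested and a threshold of 0.05. The difference of the family sum came from the same fit with 1 summed row in place of the 10 genes. DESeq2 1.42.0 was an alternative. Scripts were tested on simulated data. Further steps used Python 3.11.15, numpy 2.4.6, pandas 2.3.3 and matplotlib 3.10.9. No 2 livers of a group agreed within sampling noise (chi-square over its degrees of freedom at least 21.7). The alternatives were DESeq2, other size factors, no count filter, fits of the compared groups alone, single guides and leaving out each liver.

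The genes named are the Mup symbols, 5 tested neighbours on each side, Cd44, the 8 genes most like and the 5 most opposite to the family sum, up to 8 called genes of each list by adjusted p, and Ghr, Stat5b, Socs2, Igf1, Zhx2 and Bcl6. The Mup genes and all lists were chosen with earlier results of these data known. In lists, 1 male-biased and 1 lipocalin symbol are not in the table, and genes below the count filter were not tested. Of the genes this rule names, 1 is not reported here.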

Additional observations from a re-analysis of the deposited data

Results flagged for a closer look

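Mup21 in knockout 4 (guide g2) measured 168 CPM, far from the other 3 old Cd44KO livers at 82.7 to 91.9 CPM. Of 13 sets of values examined in this way 1 stood out. The critical value was that for 4 livers, and old Cd44KO is the only group of that size. The 13 sets thus come from the same livers and are not independent. Chance alone sets apart about 1 in 20 for 1 such set, and this rate cannot be carried over to the 13. Groups of 3 livers were not examined in this way. Cyp2a4, a female-biased cytochrome P450, differed between the Cd44 guides by -3.25 on the log2 scale (g4 minus g2, SE 0.36, adjusted p = 0.0275 in edgeR's quasi-likelihood test), and both g4 livers lay below both g2 livers.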

How the results depend on the processing

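Of 450 values of the 10 genes under the alternatives, 422 kept their direction and side of the threshold or moved by less than the spread between livers, 2 moved further and 26 changed sign. All 26 were in the knockout and guide comparisons, where none was called. Leave-one-out fits of the guides were added after the data were seen, and a lone liver is there assumed to vary like the others. No paired analysis was possible because no number in the labels links livers across groups.

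With age 3172 genes were called, 1192 when only the groups compared were fitted, and between 396 and 5327 when 1 liver was left out (396 without young 2, 1032 without old Rosa26 2, 1549 without young 3, 1690 without young 1, 5327 without old Rosa26 3). The number of the 10 called with age then ranged from 2 to 10, and it was 6 on library totals or with only the groups compared fitted. In the knockout comparison 0 genes were called by edgeR (916 at an unadjusted p under 0.05), 8 by DESeq2, 3 with the g2 livers alone and 0 to 3 with 1 liver left out. Against young livers old Cd44KO livers had 1614 genes called, 2803 by DESeq2, 3585 on library totals, 4223 with only those groups fitted and 56 to 1652 with 1 liver left out. The number of the 10 called there was 3 to 9 with 1 liver left out and 8 to 10 under the other alternatives. Between guides 3 genes were called, 73 by DESeq2, 10 without a count filter and 0 with any liver left out.

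Without Mup3, Mup20 and Mup21 the family sum differed by -2.92 with age, -0.73 with knockout, -3.64 between knockout and young and 0.63 between guides. With 1 liver left out the full sum ranged from -1.80 to -1.21, -0.23 to 0.33, -1.66 to -1.26 and -0.59 to 0.11. In the knockout comparison Mup3 was -0.15 and Mup17 -0.46 with g2 alone, and with g4 alone Mup20 was -0.36 and Cd44 0.04. On library totals the age differences were 0.22 for Igf1, 0.12 for 1600012H06Rik, 0.11 for Cdc26, 0.26 for E130308A19Rik and 0.00 for Slc31a1. Leaving out 1 liver gave knockout ranges of -1.52 to 0.49 for Mup1, -0.23 to 0.38 for Mup3, -1.21 to 0.20 for Mup12, -1.06 to 0.05 for Mup14, -0.69 to 1.06 for Mup17, -0.24 to 0.35 for Mup20 and -0.53 to 0.48 for Mup21. It gave guide ranges of -0.24 to 1.48 for Mup2, -0.04 to 0.74 for Mup3, -2.16 to 1.38 for Mup7, -0.22 to 2.95 for Mup12, -1.67 to 0.84 for Mup14, -0.85 to 2.08 for Mup17, -0.02 to 1.31 for Mup18 and -0.90 to 0.12 for Mup21. It gave age ranges of -0.25 to 0.16 for E130308A19Rik and -0.06 to 0.16 for Ptbp3. The causes were not tested. Depth limits Mup4 and Mup6, at 0 to 5 counts in old livers, and Hao2 in young livers, at 5 to 7 counts.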
